A study of Mus musculus with 6 samples.

Results

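Genes of the p53 response and of the apoptosis machinery were examined in neurospheres of adult mice that had been exposed to MG before birth. The set holds 36 genes listed by symbol, and 33 of them had a probe set that paired with that gene alone, out of 22180 genes tested on the same arrays. A gene with several such probe sets is represented by its brightest on average. Trp53, which encodes p53 itself, and Bax, a pore-forming killer protein, were matched to no probe set and were not analysed here, and the only probe set of Gadd45a pairs with a second gene as well. Those measured were Mdm2 and Mdm4, 12 p53 target genes, 8 pro-apoptotic and 3 anti-apoptotic members of the BCL2 family, 5 genes of caspases and the apoptosome, and 3 inhibitor of apoptosis genes.

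The MG group was 3 offspring of CD1 mothers given 2 intraperitoneal injections a day of 0.5 mg/kg MG, beginning on gestational day 12 and ending at delivery. The PBS group was 3 offspring of CD1 mothers injected with PBS on the same schedule. MG is read here as methylglyoxal, a reactive by-product of glycolysis, from the title of the series. All 6 animals were 2 months old when subependymal cells were taken and grown for 7 days in serum-free medium with 20 ng/ml EGF and 10 ng/ml FGF2 into neurospheres, floating colonies of neural stem and progenitor cells. CD1 is an outbred stock, and 1 array was run for each culture. The labels call the cultures both primary and secondary neurospheres, and do not say whether littermates were used. The p-values therefore measure the spread between these cultures and may be too small if they were.

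p53 is a transcription factor that is kept low by Mdm2, a ubiquitin ligase, and by the related Mdm4, and that accumulates after DNA damage and other stress. Its targets slow the cell cycle, aid repair, feed back on p53 or start apoptosis, and in the adult subventricular zone p53 is known to restrain the self-renewal of neural stem cells. Apoptosis through mitochondria is decided within the BCL2 family, where BH3-only proteins engage guardians such as BCL2 and MCL1 and free BAX and BAK to open the outer membrane. Cytochrome c then assembles APAF1 and caspase 9 into the apoptosome, and inhibitor of apoptosis proteins restrain the caspases until DIABLO displaces them.

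All values are on a log2 scale, as the authors deposited them. Levels were read only against a dim reference of 5.02, below which 95% of 1394 olfactory and vomeronasal receptor genes had their mean, and no level was compared between genes. Of 11 measured markers of neural stem and progenitor cells, 11 lay above this reference in both groups. So did 10 of 10 neuronal, 9 of 9 oligodendrocyte and 9 of 10 astrocyte markers, 5 of 12 microglial and 4 of 10 endothelial markers. Of all 22180 genes tested, 13725 did as well. The neuronal marker Dcx lay close to the reference, with a PBS mean of 5.08, and was at 4.62 on MG replicate 3 and 4.55 on PBS replicate 3. Means of the 10 astrocyte genes were higher in MG for 10, with a median log2 difference of 0.15, and none had an unadjusted p under 0.05. The mean of the microglial list lay between 5.02 and 5.10 on MG arrays and between 5.01 and 5.15 on PBS arrays, and that of the endothelial list between 4.69 and 4.84 on MG arrays and between 4.71 and 4.95 on PBS arrays. The arrays numbered 3 of both groups stood apart from the other 4. With each gene's 6-array mean subtracted, the mean of 22 S phase genes was 0.45 on MG replicate 3 and 0.43 on PBS replicate 3, while the other 4 arrays lay between -0.41 and -0.10. Each of the 22 was highest on replicate 3 in both groups, as were 21 of 21 mitosis genes, where 19.6% of all genes tested were. The counts over all measured members and over the p53 targets are given with and without these arrays. So are the differences of some single genes.

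The p53 and apoptosis genes showed no difference between MG and PBS cultures that passed the test. None of the 33 passed limma's moderated test at an adjusted p under 0.05, where 0% of the 22180 genes tested did, and the adjusted p of each of the 33 was 0.9998. A fit without moderation also gave 0 genes past the adjusted threshold. None of the 33 had an unadjusted p under 0.05 in the moderated fit, where 3.21% of all genes tested did, 1.81% with higher and 1.4% with lower means in MG. The log2 differences, MG minus PBS, ran from -0.37 for Phlda3 to 0.39 for Bak1. For 31 of the 33 genes the 95% confidence interval stayed within 1 log2 unit, or 2-fold, to either side of 0, and the exceptions were Fas, from -1.08 to 1.09, and Casp8, from -1.02 to 0.36. Means were lower in MG for 21 of the 33, which is 63.6%, where 46.2% of all genes tested were lower and 53.8% higher. The median difference was -0.04 for the 33 genes and 0.01 for all genes tested. Without PBS replicate 1, lower means were found for 12 of the 33 in place of 21, where 46.4% of all genes tested were lower. Without both arrays numbered 3 they were found for 23 of the 33, or 69.7%, where 49.3% of all genes tested were lower. A lower mean of p53 genes in that setting was known when the genes were chosen.

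**Figure D1:**
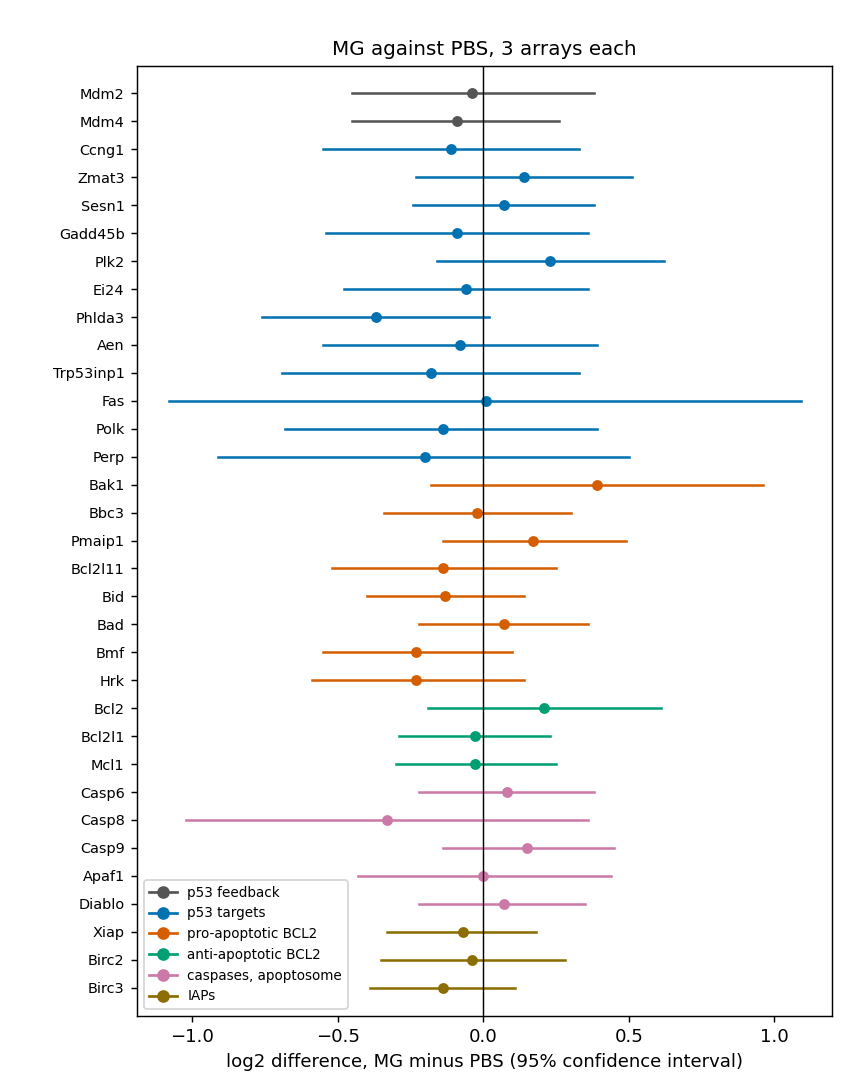
Log2 difference of each measured gene, MG minus PBS, on the horizontal axis, with points for the estimate and lines for the 95% confidence interval from limma (3 arrays in each group), coloured by role. Every interval includes 0, with that of Phlda3 reaching just past it at 0.02, and that of Fas is the longest, from -1.08 to 1.09.

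Groups did not overlap for 2 of the 33 genes, Bmf and Birc3. This compares with 7.34% of all genes tested. Both were lower in MG, where 3.31% of all genes tested were lower in MG without overlap and 4.03% higher. Without both arrays numbered 3, which leaves 2 arrays in each group, 10 of the 33 were lower without overlap and 2 higher. Of all genes tested, 15% were then lower without overlap and 16.2% higher. Birc3, an inhibitor of apoptosis gene that acts in TNF receptor signalling, had values of 5.17, 5.19 and 5.09 in MG replicates 1, 2 and 3, against 5.28, 5.34 and 5.26 in PBS replicates 1, 2 and 3. Each of the MG values lay below each of the PBS values, yet the difference was -0.14 (standard error 0.11), and all 6 values were close to the dim reference. Its limma p was 0.244 before and 0.9998 after adjustment, and in the linear model without moderation 0.0243 before and 0.9999 after. Bmf, which encodes a BH3-only protein tied to the cytoskeleton, had 4.84, 4.90 and 4.49 in MG, against 5.02, 4.96 and 4.93 in PBS. Its means were below the dim reference in both groups, so no fold is given. An exact permutation test of 3 arrays against 3 cannot give a p below 0.1 for any single gene.

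Mdm2 and Mdm4, the negative regulators of p53, had overlapping values. Mdm2 stood at 9.56, 10.04 and 10.19 in MG replicates 1, 2 and 3, against 10.07, 9.81 and 10.02 in PBS. Mdm4 stood at 9.06, 9.38 and 9.52 in MG, against 9.48, 9.24 and 9.53 in PBS. In both genes MG replicate 1 was the lowest of the 6 arrays. The log2 difference was -0.04 for Mdm2, with a standard error of 0.18, and -0.09 for Mdm4, with a standard error of 0.16. Without MG replicate 1 it was 0.15 for Mdm2 and 0.03 for Mdm4. Mdm2 is itself a p53 target, and Mdm4 binds p53 and blocks its activation domain.

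The 12 p53 targets measured here were, as a list, spread more widely among the PBS cultures than among the MG cultures. Of the 12 measured, 8 had lower and 4 higher means in MG, with a median log2 difference of -0.09. The mean of their centred values was -0.07, 0.10 and -0.13 in MG replicates 1, 2 and 3, against 0.27, 0.16 and -0.33 in PBS. The SD of this mean was 0.12 in MG and 0.32 in PBS. A list of 30 other genes of p53 signalling did not share this. Its centred mean had an SD of 0.07 in MG and 0.05 in PBS, and was -0.04 on PBS replicate 3. For 8 of the 12 targets the range was wider in PBS, where it was for 38.5% of all genes tested. PBS replicate 3 was the lowest and the other 2 PBS cultures the highest, with the 3 MG cultures in between. All 12 targets were below their own mean on PBS replicate 3. In PBS, replicate 3 was the lowest of the group for 11 of the 12, where it was for 39.8% of all genes tested. In MG, replicate 3 was the lowest for 7 of the 12. Since these are whole cultures, fewer cells of a type and less RNA per cell cannot be told apart.

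**Figure D2:**
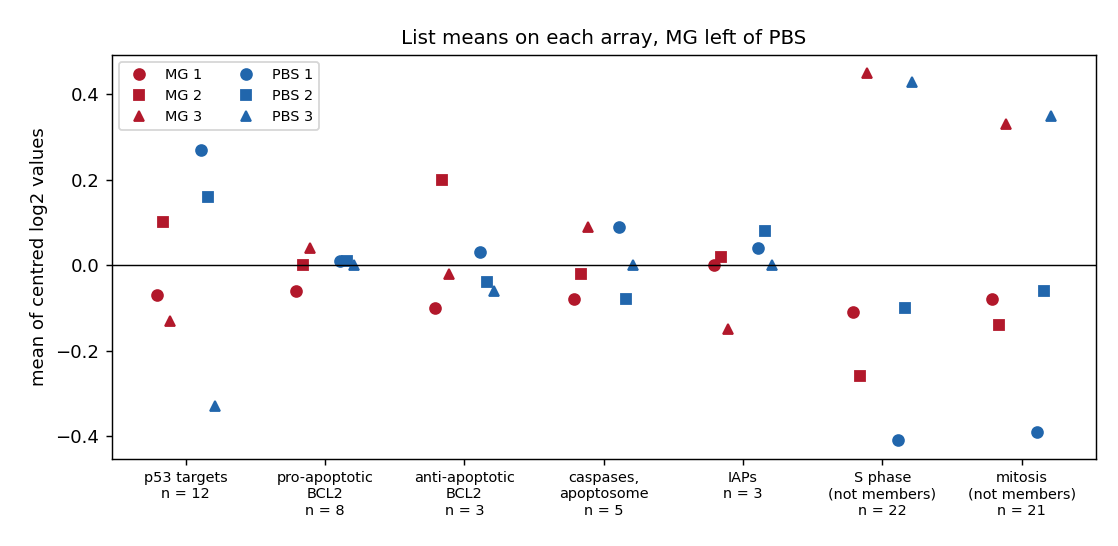
Mean over each list of the centred log2 values (vertical axis) on each array, MG in red left of PBS in blue, with the replicate number given by the marker. The p53 targets are lowest on PBS replicate 3, at -0.33, while the S phase and mitosis genes are highest on the arrays numbered 3 of both groups.

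Fas, the death receptor that recruits caspase 8, showed the widest spread of all 33 genes. Its values were 7.60, 8.16 and 7.26 in MG replicates 1, 2 and 3, against 8.29, 8.23 and 6.49 in PBS. PBS replicates 1 and 2 were the highest of the 6 and PBS replicate 3 the lowest, so that the group means, 7.68 ± 0.45 in MG and 7.67 ± 1.02 in PBS (SD, n = 3 each), were nearly equal. The standard deviation over the 6 arrays was 0.71, which exceeded that of 99.5% of the genes above the dim reference in both groups. Perp, a membrane protein of p53-dependent apoptosis and of desmosomes, had 5.53, 6.32 and 5.66 in MG, against 6.28, 6.44 and 5.40 in PBS. Its lowest value was again PBS replicate 3, and its 3 highest were PBS replicate 2, MG replicate 2 and PBS replicate 1. The log2 difference of Perp was -0.20 (standard error 0.31), and -0.43 without both arrays numbered 3.

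Phlda3, a PH domain protein that competes for membrane lipids and restrains AKT, had the smallest p of the 33 genes. It stood at 8.34, 8.27 and 7.95 in MG replicates 1, 2 and 3, against 8.69, 8.71 and 8.28 in PBS. The groups overlapped only through PBS replicate 3, which lay below MG replicate 1 and just above MG replicate 2. The log2 difference was -0.37 (standard error 0.17), with a 95% interval of -0.76 to 0.02. In limma its p was 0.0598 before and 0.9998 after adjustment. Plk2, a polo-like kinase induced by p53 and by neuronal activity, had the highest difference among the targets, 0.23 (standard error 0.17). Its values were 10.54, 10.60 and 10.42 in MG, against 10.54, 9.94 and 10.39 in PBS, and PBS replicate 2 alone lay apart.

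For 6 of the 12 p53 targets, replicate 3 was the lowest array in both groups, where this held for 21.2% of all genes tested. The 30 other genes of p53 signalling went both ways. Replicate 3 was the lowest in both groups for 9 of them and the highest in both for 11, or 36.7%, where 19.6% of all genes tested were highest. The 6 targets lowest on replicate 3, described because of their values, were Fas, Phlda3, Ccng1, Ei24, Trp53inp1 and Sesn1. Ccng1, a cyclin that acts with PP2A on Mdm2, had 11.99, 12.26 and 11.92 in MG, against 12.37, 12.36 and 11.76 in PBS. Trp53inp1, a stress protein of the nucleus and of autophagy, had 10.20, 10.41 and 9.84 in MG, against 10.70, 10.34 and 9.95 in PBS. Both spans were wider than the differences between the group means, which were -0.11 for Ccng1 and -0.18 for Trp53inp1. Ei24, an endoplasmic reticulum protein first found as a p53-induced gene, gave a log2 difference between replicate 3 and the mean of replicates 1 and 2 of -0.47 in MG and -0.41 in PBS. Sesn1, a sestrin that restrains mTORC1, gave -0.20 in MG and -0.12 in PBS by the same measure.

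Other targets did not follow this order in MG. Aen, an apoptosis-enhancing nuclease, and Polk, a translesion DNA polymerase, gave 0.04 and 0.05 in MG by this measure, against -0.67 and -0.70 in PBS. Zmat3, an RNA-binding zinc finger protein, and Gadd45b, a stress protein that is also induced by NF-kB, gave 0.46 and 0.47 in MG, against -0.22 and -0.25 in PBS. Gadd45b was lowest on MG replicate 1, at 6.54, and lay between 6.89 and 7.27 on the other arrays.

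**Figure D3:**
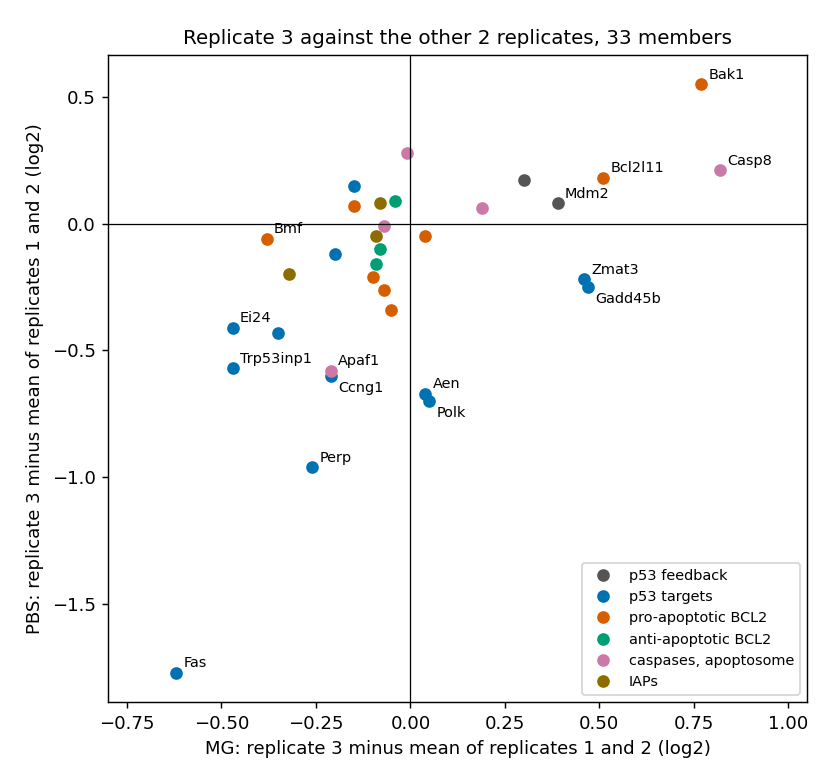
Each point is 1 gene, with the log2 value of replicate 3 minus the mean of replicates 1 and 2 in MG on the horizontal axis and in PBS on the vertical axis, coloured by role. Fas lies lowest at -0.62 in MG and -1.77 in PBS, and Bak1 is highest in PBS at 0.55, with 0.77 in MG.

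The counts for the p53 targets moved when arrays were left out. Without both arrays numbered 3, 10 of 12 targets had lower means in MG and the median log2 difference was -0.28, where 49.3% of all genes tested were lower and their median was 0. The groups, then 2 arrays each, did not overlap for 6 of the 12, each lower in MG, where 15% of all genes tested were lower without overlap. The 6 were Ccng1, Zmat3, Gadd45b, Phlda3, Aen and Fas, with log2 differences of -0.24, -0.09, -0.33, -0.39, -0.32 and -0.38. Phlda3 was the only target with an unadjusted p under 0.05 in this fit, at 0.0176 (limma), where 4.81% of all genes tested had one, and its adjusted p was 0.9995. The median was -0.31 with only PBS replicate 3 left out and -0.03 with only MG replicate 3 left out. It was 0.03 without PBS replicate 1, the array with the highest target mean, and 0 without PBS replicate 2. A lower mean of p53 genes without these arrays was already known when the genes were chosen, so it is no independent evidence. Other lists moved on the same arrays, S phase and mitosis genes being high there and astrocyte markers low. The centred mean of the 10 astrocyte markers was 0.33, 0.33 and -0.42 in MG replicates 1, 2 and 3, against -0.16, 0.18 and -0.26 in PBS, and 6 of the 10 were lowest on replicate 3 in both groups. That of the 9 oligodendrocyte markers was 0.42, 0.04 and -0.28 in MG, against -0.17, 0.17 and -0.17 in PBS, with 3 of the 9 lowest on replicate 3 in both groups. The part of these lists in the values of the p53 targets was not tested.

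**Figure D4:**
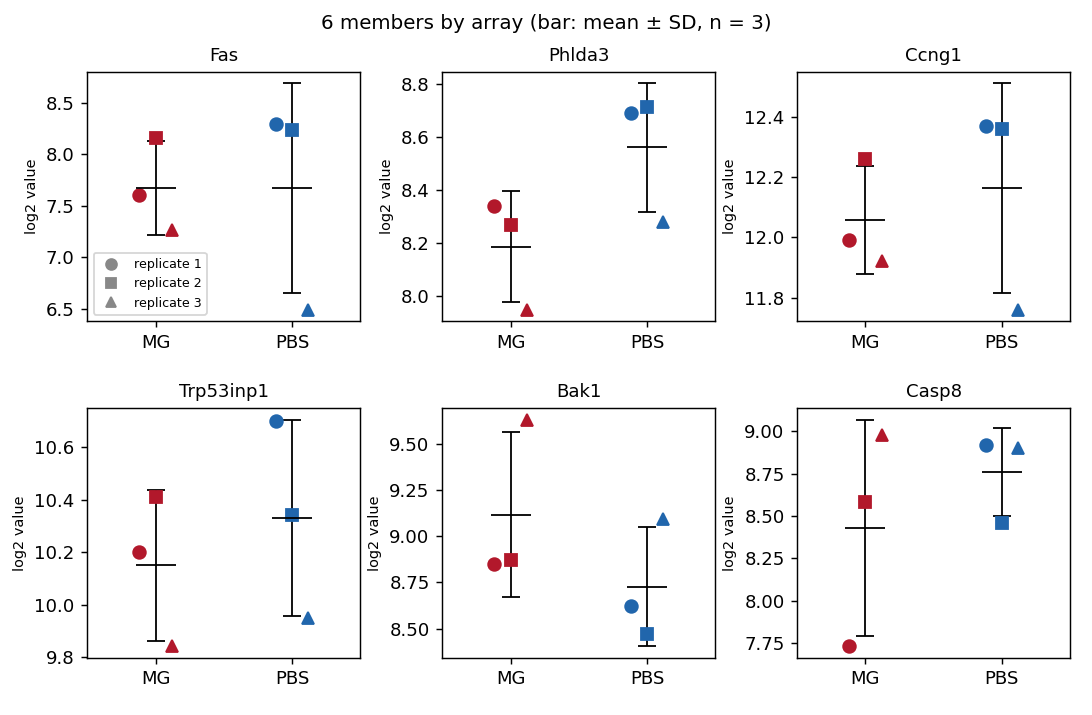
Log2 values of 6 genes on each array, MG in red left of PBS in blue, with the replicate number given by the marker, the long bar at the mean and the error bars at 1 SD (n = 3); the vertical axes differ and do not start at 0. Replicate 3 is the lowest of both groups for Fas, Phlda3, Ccng1 and Trp53inp1 and the highest of both for Bak1, and MG replicate 1 is lowest for Casp8.

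Promoter windows were read because 6 targets were lowest together on the arrays numbered 3. The RefSeq table (GRCm38.p6) held windows of 300 bases, from 250 before to 50 after a transcript's start, for 29 of the 33 genes, and Perp, Pmaip1, Trp53inp1 and Zmat3 were not in it. They were searched for the p53 half-site consensus decamer, which reads the same on both strands. A match was found for 8 of the 29 genes, or 27.6%, where 9.55% of the 27025 genes in the table had one. By window it was 20.5% of 44, where 8.36% of all 32851 windows held the decamer. The windows of Ccng1 (chr11:40755237-40755536, minus strand) and Ei24 (chr9:36797285-36797584, minus strand) are shown in full, with the match in capitals. Both genes were lowest on replicate 3 in both groups. So were Sesn1, Bmf and Birc2, which also have a match, shown further below. Mdm2, Aen and Polk, which have a match as well, were not. With or without a match, 14 of the 33 genes were lowest on replicate 3 in both groups. Whether the match goes with the order of the arrays was not tested. In Ccng1 the match begins at position -185 from a transcript start that is not the annotated start of the gene. In Ei24 it begins at -10 from the annotated gene start.
Ccng1: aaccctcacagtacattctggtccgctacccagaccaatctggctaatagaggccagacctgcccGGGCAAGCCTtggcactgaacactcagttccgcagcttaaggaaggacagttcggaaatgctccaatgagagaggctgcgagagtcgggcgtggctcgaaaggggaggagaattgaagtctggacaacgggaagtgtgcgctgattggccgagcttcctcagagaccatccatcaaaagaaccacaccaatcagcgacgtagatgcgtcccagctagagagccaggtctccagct
Ei24: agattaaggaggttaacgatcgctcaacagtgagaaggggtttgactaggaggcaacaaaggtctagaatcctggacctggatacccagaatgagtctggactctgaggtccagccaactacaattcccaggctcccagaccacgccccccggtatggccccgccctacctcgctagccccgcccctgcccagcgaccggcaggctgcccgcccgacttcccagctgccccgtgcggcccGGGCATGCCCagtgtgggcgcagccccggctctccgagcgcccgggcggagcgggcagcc

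The windows of Fas (chr19:34290409-34290708, plus strand) and Phlda3 (chr1:135765835-135766134, plus strand), the gene with the widest spread and the one with the smallest p, held no match and have no capitals. The Fas window lies at a transcript start that is not the annotated start of the gene. No match says only that the decamer is not in these 300 bases.
Fas: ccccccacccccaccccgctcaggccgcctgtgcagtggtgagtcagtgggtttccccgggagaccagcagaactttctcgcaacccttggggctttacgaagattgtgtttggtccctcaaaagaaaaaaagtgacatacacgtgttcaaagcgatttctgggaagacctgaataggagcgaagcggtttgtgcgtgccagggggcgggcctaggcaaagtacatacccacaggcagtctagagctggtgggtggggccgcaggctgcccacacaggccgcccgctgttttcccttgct
Phlda3: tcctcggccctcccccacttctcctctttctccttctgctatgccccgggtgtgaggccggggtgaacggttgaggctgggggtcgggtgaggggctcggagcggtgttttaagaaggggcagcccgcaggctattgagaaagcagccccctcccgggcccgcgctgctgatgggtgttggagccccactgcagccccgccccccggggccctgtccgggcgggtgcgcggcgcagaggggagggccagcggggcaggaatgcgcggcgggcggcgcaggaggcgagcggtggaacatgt

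In the other 6 genes the matches, in capitals with 10 bases on either side, differed in sequence and in distance from the start. They began at -186 in Mdm2, at -173 in a second window of Sesn1, at -231 in a second window of Polk and at -213 in 1 of 3 windows of Bmf. In Birc2 the match began at position 11 of the transcript, in 1 of 2 windows. Aen has 2 overlapping windows that hold the same decamer, at position 11 from one start and -121 from the other, so the count by window includes this site in both. A match is a stretch of letters and not a measured binding site.
Mdm2 (chr10:117710709-117711008, minus strand): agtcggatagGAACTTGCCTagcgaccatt
Sesn1 (chr10:41887189-41887488, plus strand): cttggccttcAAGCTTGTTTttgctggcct
Aen (chr7:78895677-78895976, plus strand): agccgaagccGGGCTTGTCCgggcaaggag
Polk (chr13:96519138-96519437, minus strand): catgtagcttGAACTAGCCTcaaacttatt
Bmf (chr2:118544538-118544837, minus strand): cccaagtgaaGGGCTTGCCTcttgccgaat
Birc2 (chr9:7836757-7837056, minus strand): cagtcaacccAGGCTAGTCTcgaatttgcg

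Among the pro-apoptotic BCL2 genes, Bak1 had the largest difference. Bak1, the pore-forming partner of BAX, stood at 8.85, 8.87 and 9.63 in MG replicates 1, 2 and 3, against 8.62, 8.47 and 9.09 in PBS. Replicate 3 was the highest of each group, and the groups overlapped because PBS replicate 3 exceeded MG replicates 1 and 2. The log2 difference was 0.39 (standard error 0.25), a fold of 1.31, and in limma its p was 0.155 before and 0.9998 after adjustment. Without both arrays numbered 3 it was 0.32, and its limma p was 0.0464 before and 0.9995 after adjustment, where 4.81% of all genes tested had an unadjusted p under 0.05.

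Of the 8 pro-apoptotic genes 3 had higher and 5 lower means in MG, with a median log2 difference of -0.07. Among the BH3-only genes that p53 induces, Bbc3, which encodes PUMA, differed by -0.02 with a standard error of 0.14, and Pmaip1, which encodes NOXA, by 0.17 with a standard error of 0.14. Bbc3 was close to constant in MG, with a range of 0.07, against 0.43 in PBS. Bcl2l11, which encodes BIM, differed by -0.14, and was higher on the replicate 3 arrays by 0.51 in MG and 0.18 in PBS. Without MG replicate 3 it differed by -0.31, with a limma p of 0.0485 before and 0.9995 after adjustment. In that fit 940 of 22180 genes tested had an unadjusted p under 0.05. Without both arrays numbered 3 Bcl2l11 differed by -0.25 and was lower without overlap, as 15% of all genes tested were. Bid, the substrate of caspase 8 that links death receptors to mitochondria, differed by -0.13, and Bad, which is held inactive by survival kinases, by 0.07. Hrk, a BH3-only gene of neurons, was below the dim reference in both groups, at 4.26, 4.51 and 4.31 in MG, against 4.46, 4.88 and 4.41 in PBS. The median was 0.03 with Bmf and Hrk, the dim genes, left out.

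Of the 3 anti-apoptotic genes 1 had a higher mean in MG and 2 a lower one, with a median log2 difference of -0.03. Bcl2, the founding guardian of the family, had 9.25, 9.92 and 9.55 in MG replicates 1, 2 and 3, against 9.35, 9.32 and 9.43 in PBS. MG replicate 2 was the highest and MG replicate 1 the lowest of the 6, and the 3 PBS values spanned 0.11. The log2 difference was 0.21 (standard error 0.17). It was 0.37 without MG replicate 1, where its limma p was 0.0482 before and 0.9992 after adjustment, and 0.04 without MG replicate 2. In the fit without MG replicate 1, 956 of 22180 genes tested had an unadjusted p under 0.05. Bcl2l1, which encodes BCL-XL, had 6.94, 7.09 and 6.94 in MG, against 7.08, 7.03 and 6.95 in PBS. Mcl1, a short-lived guardian that neural progenitors need, had 9.91, 9.98 and 9.85 in MG, against 10.06, 9.93 and 9.83 in PBS. These genes differed by -0.03 each, with standard errors of 0.11 and 0.12 and 95% confidence intervals from -0.29 to 0.23 for Bcl2l1 and from -0.30 to 0.25 for Mcl1.

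Casp8, the initiator caspase of death receptors, was low in 1 MG culture. Its values were 7.73, 8.58 and 8.98 in MG replicates 1, 2 and 3, against 8.92, 8.46 and 8.90 in PBS. MG replicate 1 lay apart from the other 5 arrays, which overlapped. The log2 difference was -0.33 (standard error 0.30), and 0.02 without MG replicate 1. MG replicate 1 was also the lowest of the 6 arrays for Mdm2, Mdm4, Gadd45b, Bcl2, Bid and Hrk. For Bcl2l1 it shared the lowest rounded value with MG replicate 3. The share of all genes tested that were lowest on this array was not counted. Casp9, the initiator caspase of the apoptosome, had 6.83, 6.99 and 6.90 in MG, against 6.68, 6.64 and 6.94 in PBS, a difference of 0.15 with a standard error of 0.13. Without both arrays numbered 3 the difference of Casp9 was 0.25 and the groups did not overlap. Of all genes tested, 16.2% were then higher without overlap. Apaf1, the apoptosome scaffold and a p53 target, differed by 0, with a standard error of 0.19, and was lowest on PBS replicate 3 at 7.94. Casp6, an executioner caspase, and Diablo, the mitochondrial antagonist of the inhibitors, differed by 0.08 and 0.07. Of these 5 genes 4 had higher and 1 a lower mean in MG, with a median of 0.07. Without both arrays numbered 3, 3 were higher and 2 lower, with a median of 0.04.

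The 3 inhibitor of apoptosis genes all had lower means in MG, with a median log2 difference of -0.07. Xiap, which blocks caspases directly, had the smallest standard deviation of the 33 over the 6 arrays, with a span of 0.18, and differed by -0.07 with a standard error of 0.11. Birc2, a ubiquitin ligase of TNF receptor complexes, had 7.53, 7.54 and 7.21 in MG, against 7.55, 7.52 and 7.33 in PBS. Its replicate 3 arrays were the lowest of both groups, and its difference was -0.04 (standard error 0.14).

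**Figure D5:**
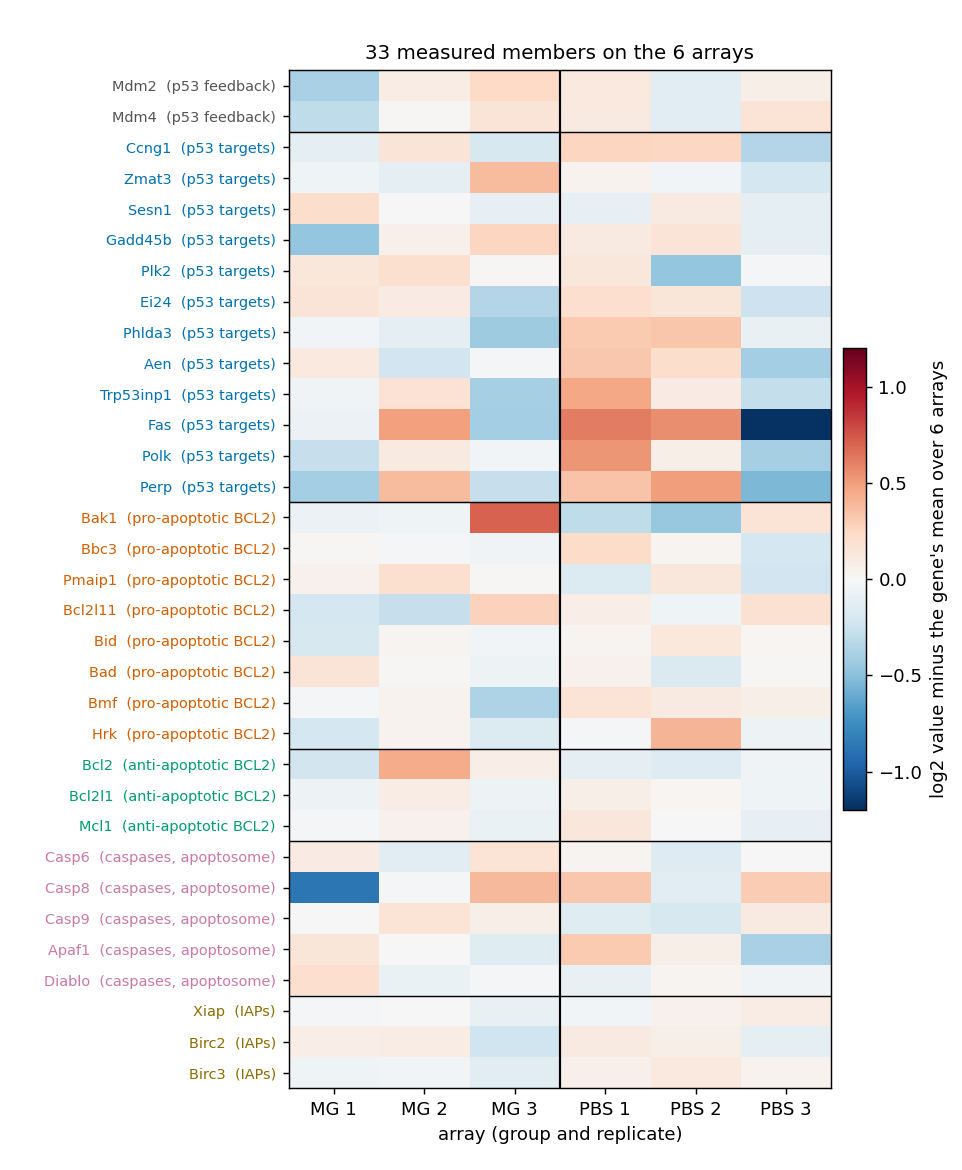
Each row is a gene, grouped by role, and each column an array, MG left of PBS; colour gives the log2 value minus the gene's mean over the 6 arrays. All 12 p53 targets are below their mean on PBS replicate 3, where Fas stands out, and Casp8 is low on MG replicate 1.

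Further genes of the pathways were counted in the same way. Of 30 other genes of p53 signalling, 11 were higher in MG and 19 lower by their means (median log2 difference -0.04). Of 27 other apoptosis genes, 11 were higher and 16 lower (median -0.02). Lower means were found for 46.2% of all genes tested. No gene of either list passed the adjusted test. Cdkn1a, which encodes the cell cycle inhibitor p21 and is the best known p53 target, had 11.52, 11.89 and 12.32 in MG, against 12.16, 11.91 and 11.98 in PBS. Its highest and lowest values were both in MG, and the difference was -0.11 (standard error 0.20). The 1 gene with an unadjusted p under 0.05 was Casp12, an inflammatory-type caspase, at 0.0416, where 3.21% of all genes tested had one, and it was below the dim reference in both groups.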

How the data were processed

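RNA of 6 neurosphere cultures was measured on Affymetrix Mouse Gene 2.0 ST arrays, from 250 ng of total RNA each, per the labels' protocols. The values used are the log2 values deposited by the authors, 1 per probe set and array, from 0.73 to 13.81; the log2 scale was inferred from this range. The submitters' processing notes name Partek 6.6, and how background was corrected and values were normalised is not given in the sources used. The number of arrays limits the precision, with a median standard error of 0.15 for a log2 difference. Of 41345 probe sets, 23521 named 1 gene, 1814 several and 16010 none, with symbols updated through RefSeq. MG was compared with PBS over 22180 genes with limma 3.58.1 in R 4.3.3 (lmFit, eBayes, no covariate, two-sided, Benjamini-Hochberg over all genes), and the steps were tested on simulated data. Lists are described by counts and medians, without a test. The text names all members, with values on every array for Mdm2, Mdm4, anti-apoptotic genes, genes without overlap, the extremes of each role group and the 3 widest spreads, and genes of the further lists with an unadjusted p under 0.05. The members, lists and alternatives were chosen with earlier results of these data known. Windows were searched in Python 3.11.15 and figures drawn with matplotlib 3.10.9.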

Additional observations from a re-analysis of the deposited data

How the results depend on the processing

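No gene passed the adjusted threshold under any of the 16 alternatives, and the lowest adjusted p of a member was 0.913. Of 526 member values under them, 485 kept their sign and 41 turned it, in 18 of the 33 genes. Genes with an unadjusted p under 0.05, 712 in all, numbered 246 with dim genes left out, 1288 over all probe sets, 1163 with array weights, and 416 to 956 with 1 array left out, the lowest without PBS replicate 1. With the replicate number as a block they numbered 1063. The labels do not say whether the numbers pair the samples. Deviations from group means correlated at 0.22, 0.04 and 0.45 between same-numbered arrays, and at -0.37 to 0.26 between arrays of different number. These values cannot decide whether the numbers pair the samples. Under the block Phlda3 and Bak1 had limma p-values of 0.0153 and 0.0160, with adjusted p 0.9992 for both. Members with an unadjusted p under 0.05, 0 in the moderated fit of all arrays, numbered at most 2 under any alternative. Members with lower means in MG numbered 12 to 23 with 1 array left out. The pro-apoptotic median of -0.07 was 0.03 with dim genes left out, -0.03 after median centring, -0.12 without both arrays numbered 3, and -0.11 to -0.03 with 1 array left out. The median of the inhibitor of apoptosis genes was -0.02 without both arrays numbered 3. Signs turned in Mcl1 with probe sets averaged (0.03). Under quantile normalisation they turned in Fas (-0.01) and Apaf1 (-0.02), and after median centring, where the median of all genes was 0.05, in Mdm2 (0), Bbc3 (0.02), Bcl2l1 (0.01), Mcl1 (0.02) and Birc2 (0.01). With array weights they turned in Zmat3 (0), Fas (-0.11) and Apaf1 (-0.09), and without both arrays numbered 3 in Zmat3 (-0.09), Fas (-0.38), Apaf1 (-0.12) and Birc2 (0.01). With 1 array left out, the log2 difference ran from -0.17 to 0.15 for Mdm2, -0.19 to 0.03 for Mdm4, -0.02 to 0.14 for Sesn1, -0.25 to 0.12 for Gadd45b, -0.60 to 0.02 for Casp8, -0.19 to 0.16 for Apaf1, -0.02 to 0.12 for Diablo, -0.30 to 0.06 for Aen and -0.58 to 0.32 for Fas. It ran from -0.01 to 0.24 for Zmat3, -0.20 to 0.10 for Ei24, -0.08 to 0.04 for Mcl1, -0.10 to 0.07 for Birc2, -0.37 to 0.01 for Trp53inp1, -0.38 to 0.09 for Polk, -0.13 to 0.08 for Bbc3, -0.08 to 0 for Bcl2l1 and -0.52 to 0 for Perp. Beyond the arrays left out, the cause of these turns was not tested.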

Other observations

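Some genes of the further p53 and apoptosis lists, picked here after their values were seen, also stood apart on the arrays numbered 3. Birc5, which encodes survivin and is made in dividing cells, was higher on replicate 3 than the mean of the other 2 replicates by 1.02 in MG and 0.91 in PBS on the log2 scale. Chek2 and Casp2 were higher by 0.70 and 0.61 in MG and by 0.79 and 0.67 in PBS. Bnip3, a mitophagy receptor induced by hypoxia, went the other way, with differences of -1.66 in MG and -1.38 in PBS, as did Cdkn2a, with -0.78 and -0.66. Tnfrsf10b, the mouse death receptor for TRAIL, differed by 0.03 in MG and -0.96 in PBS.

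The probe set that Gadd45a shares with E230016M11Rik had 7.77, 7.86 and 7.25 in MG replicates 1, 2 and 3, against 7.73, 7.87 and 7.34 in PBS. A second probe set of Mcl1 had means of 6.06 in MG and 5.98 in PBS, a difference of 0.08 where the brighter probe set gave -0.03.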
